A study of Mus musculus with 45 samples.

Results

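The genes of glucose uptake, glycolysis, its HIF-1 control and the pentose phosphate pathway were followed in mouse macrophages given IL-4, IFN-γ or both. They are 32 genes chosen by name among the 24421 of the expression table. All 32 were among the 11380 genes that passed a filter of at least 1 CPM (a read count relative to library size) in at least 3 libraries; Egln3, at 0.296 to 3.01 CPM, passed it only through the libraries in which it was higher. The cells were macrophages grown from the bone marrow of C57BL/6 mice and taken on day 7 of culture in L929-conditioned medium, which supplies the growth factor M-CSF. They received IL-4 at 10 ng/ml, IFN-γ at 100 ng/ml or both at these doses for 2 h or 4 h, or stayed untreated, with 3 libraries of poly(A) RNA in each of the 7 groups. The untreated cells are the only controls, with no later untreated time point, and all 6 comparisons with them share the same 3 libraries. A further 24 libraries, made from shRNA-carrying cells, were not analysed here.

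Glycolysis takes glucose in through GLUT carriers, traps it with hexokinases, commits it at phosphofructokinase and ends in pyruvate, which lactate dehydrogenase turns into lactate for export by MCT carriers. The pentose phosphate pathway branches off after the hexokinase step, yields NADPH and ribose, and returns carbon to glycolysis through transketolase and transaldolase. HIF-1, whose α subunit is encoded by Hif1a and is marked for degradation by the EGLN hydroxylases, is a transcription factor that binds many glycolytic genes. In macrophages, classical activation by IFN-γ with microbial products is known for high glycolysis, and alternative activation by IL-4 for a greater reliance on oxidative metabolism.

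The 21 libraries held 28920801 to 80028327 reads. The ribosomal RNA precursor Rn45s took 43.2% and 15.7% of the reads in untreated replicates 2 and 3, against 0.151% in untreated replicate 1 and 3.21% in the highest treated library, and it lowers the CPM of every other gene there. Levels and tests below therefore use CPM rescaled by median-ratio factors (0.579 in untreated replicate 2 to 1.22 in replicate 2 of IL-4, 4 h), with the deposited scaling as an alternative. Libraries with the same replicate number deviated together in every group, so the count with the replicate number as a block stands beside the main one. The 8 macrophage markers summed to 16630 to 37120 CPM per library. The summed markers of T cells (0.047 to 0.329 CPM), B cells (0.047 to 0.217), neutrophils (2.47 to 14.7), erythroid cells (0 to 0.0235, with Hba-a1 and Hbb-bs at 0 throughout) and fibroblasts (5.97 to 14.7) were low in every library. Of the 3 endothelial markers Cdh5 stayed under 1 CPM, while Pecam1 and Kdr varied, and their summed level was 13.02 to 34.9 CPM after 4 h of IFN-γ, 12.9 to 18.7 after 4 h of IL-4 and 7.14 to 15.5 in untreated cells. Their part in the results was not tested.

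After 4 h of IFN-γ, 10 of the 32 genes rose and 1 fell against untreated cells, beside 21.3% and 17.8% of all genes tested. The 10 were the carriers Slc2a1, Slc2a6 and Slc16a3, the hexokinases Hk1, Hk2 and Hk3, the phosphofructokinases Pfkl and Pfkp, the phosphofructokinase regulator Pfkfb3, and Hif1a. Under both cytokines at 4 h, 9 rose and 0 fell (22.8% and 19.8% of all genes), the same genes without Pfkfb3. Under IL-4 at 4 h, 2 rose (Slc2a1 and Slc2a6) and 1 fell (Pgd), below the 12% and 10.1% of all genes. The median log2 change of the 32 was 0.29 after IFN-γ, 0.18 after both and -0.10 after IL-4, beside medians of all genes within 0.01 of 0. A log2 change here is a difference of means of log2(rescaled CPM + 1), which understates the change of weakly expressed genes, and a gene rose or fell when the limma adjusted p over all genes was under 0.05. The ± beside a log2 change is its SE in the main fit without the block, also where the adjusted p is that of the block. In these bulk samples fewer cells with a transcript and less of it per cell cannot be told apart.

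At 2 h the changes were fewer. IFN-γ raised 3 of the 32 and lowered 0 (10.8% and 7.1% of all genes), both cytokines raised 5 and lowered 1 (12.8% and 9.38%), and IL-4 raised 1 and lowered 1 (5.51% and 3.11%). With the replicate block the counts were larger, as they were for all genes. At 4 h they came to 18 higher and 4 lower under IFN-γ (32.5% and 30.8% of all genes), 13 and 4 under both (33.4% each) and 4 and 11 under IL-4 (23.9% and 23.6%). At 2 h they came to 9 and 3 under IFN-γ (20.2% and 17.9%), 10 and 5 under both (22.6% and 20.9%) and 4 and 5 under IL-4 (14% and 11.5%). In the deposited scaling, which moves the median of all genes by up to 0.43, no member fell against untreated cells. There 10, 10 and 6 were higher at 4 h of IFN-γ, both and IL-4, and 6, 8 and 5 at 2 h, beside 17.7%, 23.7%, 34.1%, 14%, 18.1% and 16.1% of all genes higher and 7.64%, 8.46%, 2.55%, 1.62%, 2.71% and 0.615% lower.

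**Figure D1:**
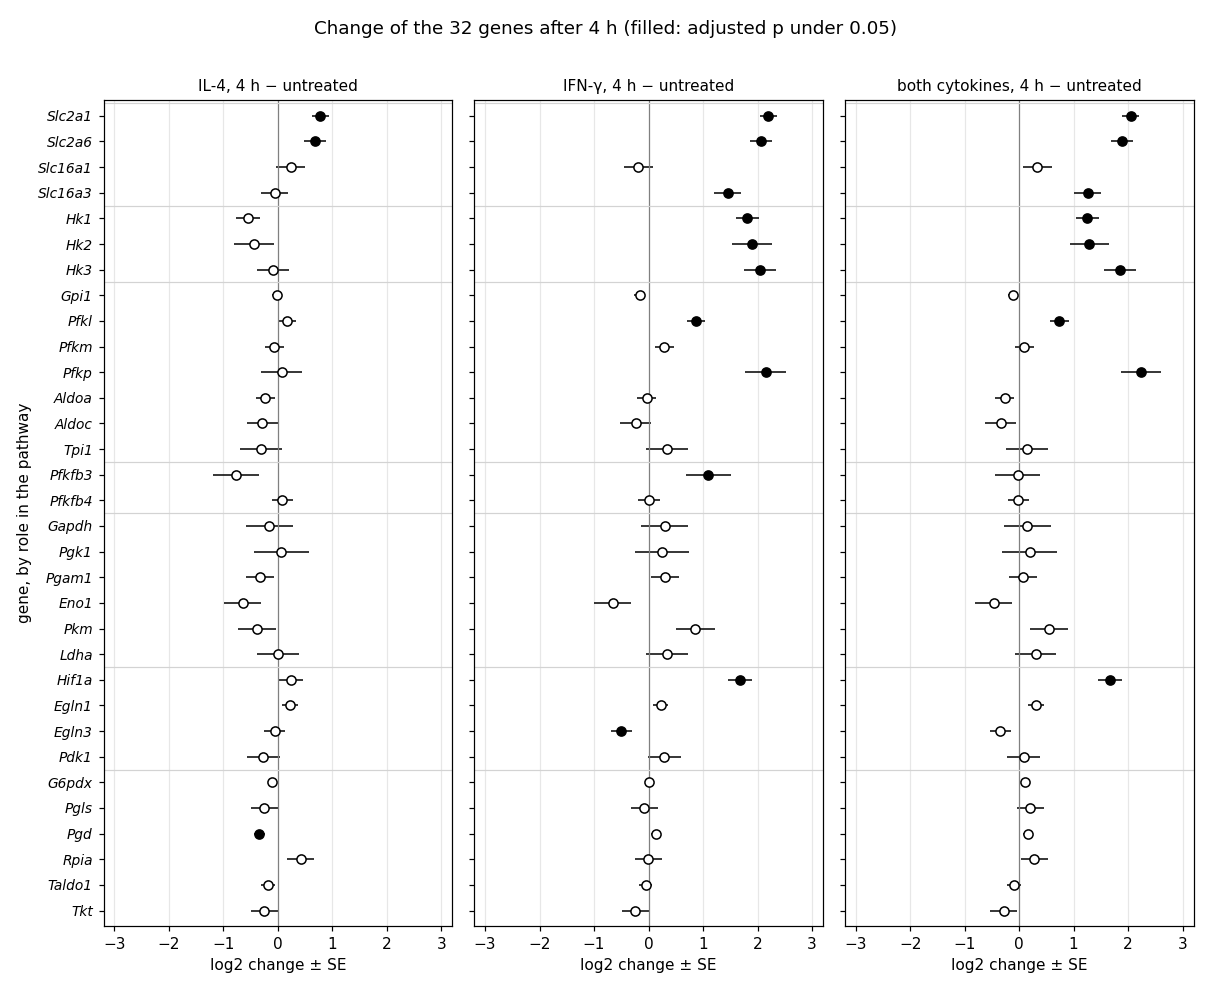
Log2 change ± SE of each of the 32 genes after 4 h of IL-4, IFN-γ or both cytokines against untreated cells (n = 3 libraries per group, rescaled CPM + 1), grouped by role in the pathway; filled points have an adjusted p under 0.05. Slc2a1, Slc2a6, Slc16a3, the 3 hexokinases, Pfkl, Pfkp and Hif1a are filled and lie to the right under IFN-γ and under both, and no lower glycolysis gene is filled in any panel, with Pkm at 0.86 and Eno1 at -0.65 under IFN-γ.

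Promoter sequences are shown for 4 of the 10 genes that rose under IFN-γ and, for contrast, for Pgk1, a lower glycolysis gene that did not pass the test in any comparison. They are the 250 bases before the RefSeq transcription start (GRCm38.p6): chr4:119108495-119108744 on the + strand for Slc2a1, chr11:120948817-120949066 on the + strand for Slc16a3, chr13:55021386-55021635 on the - strand for Hk3, chr12:73907617-73907866 on the + strand for Hif1a and chrX:106186850-106187099 on the + strand for Pgk1. Capitals mark matches, on either strand, to ACGTG, the core that HIF-1 binds, and to TTC and GAA with any 4 bases between them, a spacing of the STAT6 site.
Slc2a1: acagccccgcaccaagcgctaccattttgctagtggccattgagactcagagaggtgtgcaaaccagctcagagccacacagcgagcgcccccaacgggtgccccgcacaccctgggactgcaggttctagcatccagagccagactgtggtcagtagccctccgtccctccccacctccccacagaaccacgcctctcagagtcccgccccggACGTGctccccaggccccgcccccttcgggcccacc
Slc16a3: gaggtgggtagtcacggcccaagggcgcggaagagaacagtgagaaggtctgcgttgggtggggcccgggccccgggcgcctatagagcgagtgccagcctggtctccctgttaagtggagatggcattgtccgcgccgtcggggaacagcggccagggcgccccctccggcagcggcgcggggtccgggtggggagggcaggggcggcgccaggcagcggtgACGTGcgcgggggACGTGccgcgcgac
Hk3: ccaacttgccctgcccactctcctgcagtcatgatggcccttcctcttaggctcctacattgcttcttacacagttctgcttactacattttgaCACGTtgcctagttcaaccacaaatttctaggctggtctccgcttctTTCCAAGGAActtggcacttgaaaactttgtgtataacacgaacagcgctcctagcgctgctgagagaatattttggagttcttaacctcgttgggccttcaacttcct
Hif1a: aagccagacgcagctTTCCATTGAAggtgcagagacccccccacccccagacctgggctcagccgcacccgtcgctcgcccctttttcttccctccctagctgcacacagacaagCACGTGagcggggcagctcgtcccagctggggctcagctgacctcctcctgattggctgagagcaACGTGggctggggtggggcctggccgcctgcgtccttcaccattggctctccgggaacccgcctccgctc
Pgk1: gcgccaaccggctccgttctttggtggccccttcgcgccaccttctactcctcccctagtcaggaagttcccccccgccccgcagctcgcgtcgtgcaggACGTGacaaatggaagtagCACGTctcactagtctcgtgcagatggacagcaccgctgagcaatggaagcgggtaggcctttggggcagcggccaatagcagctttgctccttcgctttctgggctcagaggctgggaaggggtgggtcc

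Slc2a1 held 1 ACGTG, whose first base is 36 bases before the start, and Slc16a3 held 2, at 27 and 14 bases. Hk3 held 1 at 156 bases, read on the other strand as CACGT, and 1 match to the STAT6 spacing at 109 bases. Hif1a held 3 ACGTG, of which a pair overlaps in the palindrome CACGTG at 135 bases, and 1 match to the STAT6 spacing at 235 bases. Pgk1 held 2 ACGTG, at 150 and 131 bases. Over windows of 300 bases (250 before the start and 50 after), ACGTG was found in 19 of the 32 members (59.4%) and in 21.8% of 27025 genes with a RefSeq window. It was found in 7 of the 10 genes that rose after 4 h of IFN-γ and in 12 of the 22 other members. The palindrome CACGTG, which overlaps it, was in 5 members and in 8.09% of all genes. The STAT6 spacing was in 5 members and in 8.01% of all genes. GAAA repeated after any 2 bases, the core of interferon-stimulated response elements, was in 0 members and in 3.99%. Members with several starts had more windows (46 for the 32 genes). A match describes these letters only, and its part in the responses was not tested.

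Of the 4 carriers, 3 rose after 4 h of IFN-γ and after 4 h of both cytokines, and the glucose carriers also responded to IL-4. Slc2a1 encodes GLUT1, the general glucose carrier (chromosome 4, 119108711 to 119137983, GRCm38). It stood at 59.2, 59.2 and 51.6 CPM after 4 h of IL-4, at 208, 108 and 159 CPM after 4 h of IFN-γ and at 148, 138 and 128 CPM after 4 h of both, against 32.9, 33.7 and 31.2 CPM in untreated cells (replicates 1, 2 and 3, in this order here and below). Every treated library lay above every untreated one, and the IFN-γ libraries at 4 h spread the most. The log2 changes were 0.78 ± 0.15 for IL-4 (adjusted p = 0.0012), 2.20 ± 0.15 for IFN-γ (8.9e-09) and 2.04 ± 0.15 for both (1.5e-08). By the main test Slc2a1 was the one member that rose under all 3 treatments at 2 h as well: 67.9, 70.8 and 71.9 CPM under IL-4, 57.3, 55.7 and 58.1 under IFN-γ and 84.0, 80.9 and 79.4 under both, with log2 changes of 1.08, 0.79 and 1.30 (each ± 0.15; adjusted p = 1.4e-04, 0.0011 and 5.9e-06). With replicate 3 dropped throughout, the calls under IL-4 (adjusted p = 0.066 at 2 h and 0.071 at 4 h) and IFN-γ at 2 h (0.11) ended.

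Slc2a6 encodes GLUT6, a hexose carrier of lysosomal membranes (chromosome 2, 27021363 to 27027998). Its level was 220.4, 167 and 221 CPM after 4 h of IL-4, 691, 354 and 596 CPM after 4 h of IFN-γ and 514, 420.1 and 466 CPM after 4 h of both, against 131, 122 and 123 CPM in untreated cells. Replicate 2 was the lowest library of all 7 groups, and no treated group overlapped the untreated one. The log2 changes were 0.68 ± 0.21 (adjusted p = 0.024), 2.06 ± 0.21 (6.3e-07) and 1.89 ± 0.21 (1.3e-06). The smaller rises, under IL-4 at 4 h and under both at 2 h (0.63 ± 0.21, adjusted p = 0.035), did not pass against untreated replicate 1 alone (adjusted p = 0.25 and 0.29). The rise under IL-4 at 4 h was also lost without untreated replicate 2 (0.064) or 3 (0.068) or IL-4 replicate 1 (0.087) or 3 (0.088), and that under both at 2 h without untreated replicate 1 (0.063), 2 (0.086) or 3 (0.091) or treated replicate 1 (0.15) or 3 (0.094). At 2 h of IL-4 (0.43 ± 0.21) and of IFN-γ (0.38 ± 0.21) it did not pass the main test but passed with the block (adjusted p = 0.0096 and 0.013) and in the deposited scaling (0.011 and 0.032).

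Slc16a3 encodes MCT4, the carrier that exports lactate from glycolytic cells (chromosome 11, 120948480 to 120960868). It changed late and under IFN-γ: 25.9, 37.6 and 24.6 CPM after 4 h of IL-4, 95.0, 93.9 and 67.6 CPM after 4 h of IFN-γ and 72.7, 89.4 and 61.8 CPM after 4 h of both, against 27.8, 35.2 and 28.1 CPM in untreated cells. The IL-4 libraries overlapped the untreated ones, and the lowest library of the other treatments at 4 h was above the highest untreated one. It rose by log2 1.45 ± 0.25 under IFN-γ (adjusted p = 1.8e-04) and 1.26 ± 0.25 under both (5.5e-04), with -0.06 ± 0.25 under IL-4 (0.91). At 2 h its log2 changes were -0.04, -0.06 and -0.20 under IL-4, IFN-γ and both (each ± 0.25), all overlapping the untreated libraries. Slc16a1, which encodes MCT1, a lactate carrier that works in both directions, lay between 9.92 and 29.2 CPM in all libraries and did not pass the main test in any of the 15 comparisons. With the block it passed in 8, among them as higher after 2 h of IFN-γ (0.38 ± 0.27; adjusted p = 0.034) and after 2 h (0.44 ± 0.27; 0.013) and 4 h (0.33 ± 0.27; 0.035) of both, against untreated cells.

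All 3 hexokinase genes, whose enzymes trap glucose in the cell, rose after 4 h of IFN-γ and after 4 h of both cytokines. Under IL-4, 0 of the 3 passed at either time by limma without the block or by edgeR. Before adjustment, Hk2 at 2 h and Hk1 at 4 h were lower at p under 0.05, and these 2 passed as lower with the block. Hk1 (chromosome 10, 62268855 to 62379908) stood at 61.7, 74.1 and 70.9 CPM after 4 h of IL-4, at 285, 426 and 372 CPM after 4 h of IFN-γ and at 185, 314 and 242 CPM after 4 h of both, against 78.1, 126 and 104 CPM in untreated cells. All IL-4 libraries lay below all untreated ones, and those of the other treatments above them. Its log2 changes were -0.55 ± 0.22 under IL-4 (adjusted p = 0.083; 2.7e-04 with the block), 1.81 ± 0.22 under IFN-γ (4.5e-06) and 1.25 ± 0.22 under both (1.6e-04). It was the one hexokinase that also passed the main test at 2 h, with 214, 238 and 231 CPM after 2 h of IFN-γ (log2 change 1.17 ± 0.22, adjusted p = 7.9e-04) and 144, 177 and 173 CPM after 2 h of both (0.70 ± 0.22, 0.026). With replicate 3 dropped throughout, both calls at 2 h ended (adjusted p = 0.088 under IFN-γ, 0.32 under both), and the call under both was also lost without untreated replicate 1 (0.14) or 3 (0.060) or treated replicate 2 (0.086) or 3 (0.075).

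Hk2, the inducible isoform bound to mitochondria (chromosome 6, 82725025 to 82774454), stood at 33.6, 34.9 and 26.3 CPM after 4 h of IL-4, at 296, 95.3 and 153 CPM after 4 h of IFN-γ and at 160, 91.9 and 82.1 CPM after 4 h of both, against 46.6, 38.3 and 44.3 CPM in untreated cells. The lowest library of IFN-γ or of both was still above the highest untreated one. It rose by 1.90 ± 0.36 under IFN-γ (adjusted p = 4.7e-04) and by 1.29 ± 0.36 under both (0.0081), and its change under IL-4 was -0.44 ± 0.36 (0.45). The call under both ended against untreated replicate 1 alone (adjusted p = 0.13), with replicate 3 dropped throughout (0.073) and without replicate 1 of the treated group (0.051). Under IL-4 at 2 h all libraries, at 20.4, 32.6 and 20.3 CPM, lay below the untreated ones (-0.82 ± 0.36, adjusted p = 0.23; 0.036 with the block).

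Hk3, the isoform of myeloid cells (chromosome 13, 55005985 to 55021385), was the highest hexokinase per length in each group. It stood at 169, 380.4 and 222 CPM after 4 h of IL-4, at 1127, 963 and 1111 CPM after 4 h of IFN-γ and at 871, 1029 and 896 CPM after 4 h of both, against 191, 373 and 240.2 CPM in untreated cells. Replicate 2 stood above the others in the IL-4 and untreated groups and below them after 4 h of IFN-γ, where all libraries were above all untreated ones. The log2 changes were -0.08 ± 0.29 (adjusted p = 0.90), 2.04 ± 0.29 (3.2e-05) and 1.85 ± 0.29 (7.4e-05). At 2 h Hk3 did not pass the main test under IFN-γ (0.66 ± 0.29, adjusted p = 0.15) or both (0.55 ± 0.29, 0.22), but it passed with the block (0.0093 and 0.024) and in the deposited scaling (0.030 and 0.040). Per kilobase of the longest coding transcript, Hk3, Hk1 and Hk2 averaged 331.5 ± 28.2, 84.4 ± 16.6 and 32.9 ± 18.8 CPM after 4 h of IFN-γ, against 83.2 ± 29.2, 24.0 ± 5.62 and 7.81 ± 0.784 CPM in untreated cells (SD, n = 3), so the order of the isoforms was the same.

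**Figure D2:**
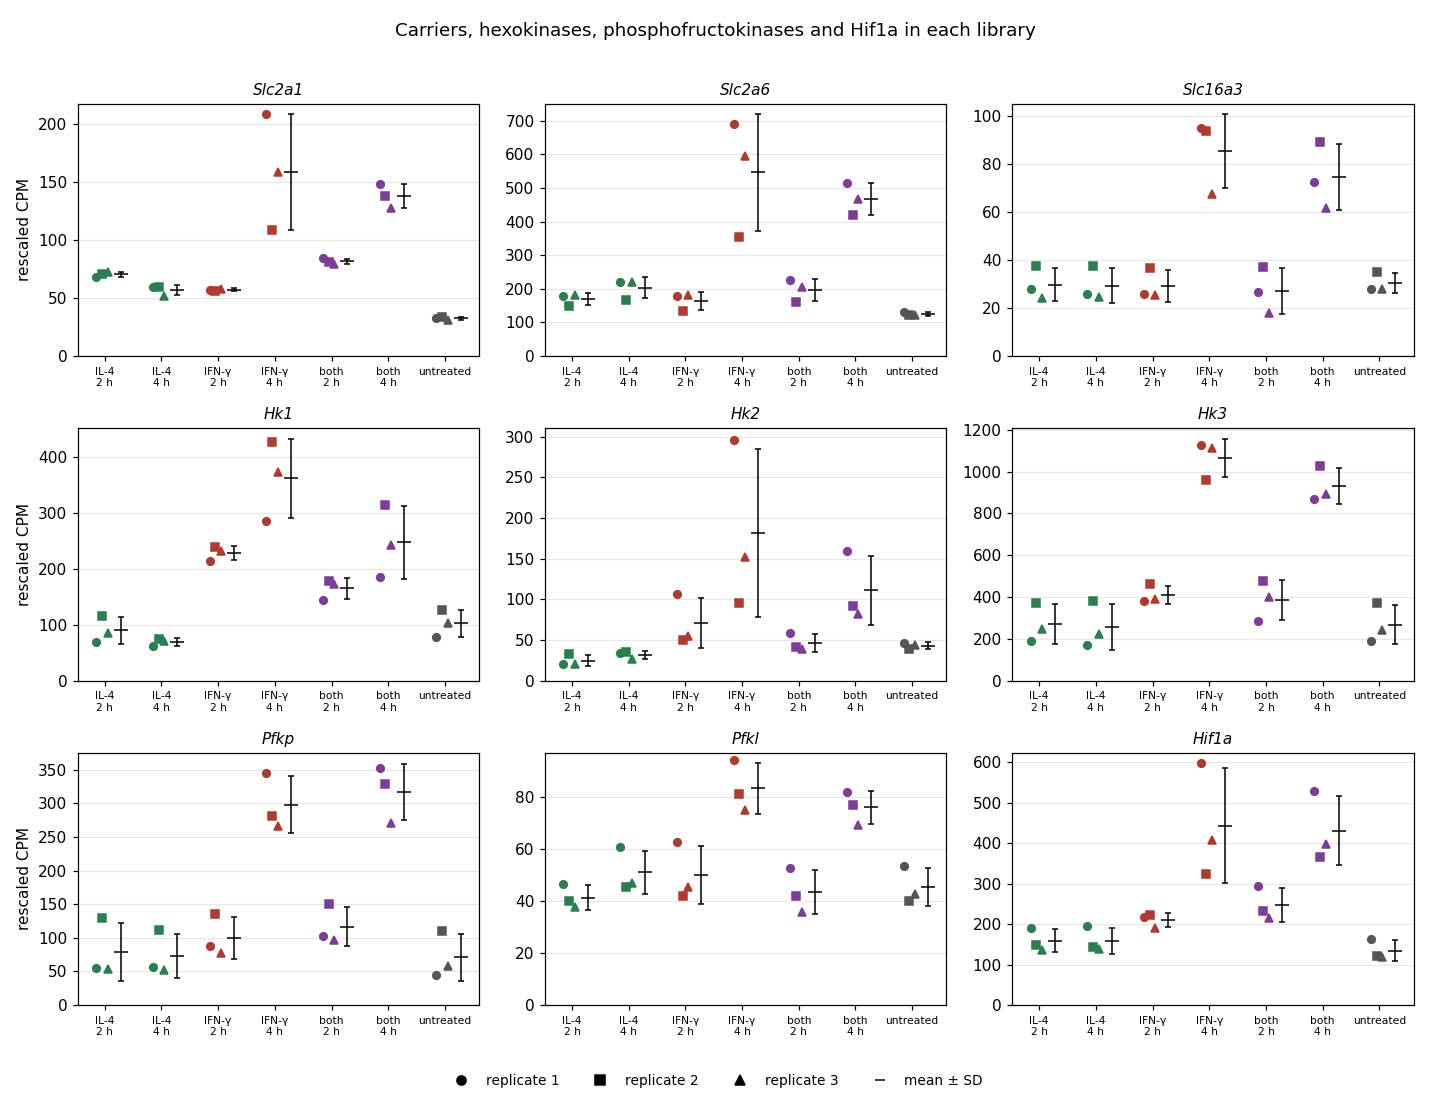
Rescaled CPM of Slc2a1, Slc2a6, Slc16a3, Hk1, Hk2, Hk3, Pfkp, Pfkl and Hif1a in each of the 21 libraries; circle, square and triangle are replicates 1, 2 and 3, and the dash with bars is the group mean ± SD (n = 3). After 4 h of IFN-γ or of both, every library of these genes stands above the untreated ones, which lie between 31.2 and 33.7 CPM for Slc2a1 and reach 373 CPM for Hk3.

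Of the 7 genes between hexokinase and the triose phosphates, 2 rose after 4 h of IFN-γ and of both cytokines, and these were phosphofructokinase isoforms. Pfkp, the platelet type (chromosome 13, 6579768 to 6648777), had 57.0, 111 and 52.2 CPM after 4 h of IL-4, 346, 282 and 266 CPM after 4 h of IFN-γ and 352, 328 and 271 CPM after 4 h of both, against 44.6, 110.3 and 58.3 CPM in untreated cells. Replicate 2 was the high library in the IL-4 and untreated groups, and the other 2 groups lay wholly above it. It rose by 2.15 ± 0.37 under IFN-γ (adjusted p = 2.0e-04) and 2.24 ± 0.37 under both (1.1e-04), the largest change of a member under both, with 0.07 ± 0.37 under IL-4 (0.94). Pfkl, the liver type (chromosome 10, 77986947 to 78010083), had 60.6, 45.5 and 46.9 CPM, 93.9, 81.2 and 74.8 CPM and 81.9, 76.8 and 69.3 CPM after 4 h of IL-4, IFN-γ and both, against 53.6, 39.9 and 42.6 CPM in untreated cells. It rose less, by 0.87 ± 0.17 under IFN-γ (6.5e-04) and 0.74 ± 0.17 under both (0.0021), and against untreated replicate 1 alone it did not pass (adjusted p = 0.076 and 0.15).

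Pfkm, the muscle type, lay between 14.9 and 25.3 CPM and passed the main test nowhere (0.29 ± 0.17 after 4 h of IFN-γ, adjusted p = 0.20; 0.0050 with the block). Per kilobase, Pfkp, Pfkl and Pfkm averaged 71.9 ± 10.2, 22.3 ± 2.62 and 7.77 ± 0.884 CPM after 4 h of IFN-γ, against 17.1 ± 8.37, 12.2 ± 1.94 and 6.30 ± 0.877 CPM in untreated cells, where the spreads of Pfkp and Pfkl overlapped. The isomerase Gpi1, the aldolases Aldoa and Aldoc and the triose phosphate isomerase Tpi1 did not pass the main test in any of the 15 comparisons. With the block, Tpi1 was higher after 4 h of IFN-γ (0.33 ± 0.39; adjusted p = 0.0029) and was lower after 4 h of IL-4 (-0.31 ± 0.39; 0.0065). Aldoc was then lower after 4 h of IFN-γ (-0.24 ± 0.28; 0.028) and of both (-0.33 ± 0.28; 0.0034), as was Aldoa after 4 h of IL-4 (-0.23 ± 0.17; 0.024) and of both (-0.27 ± 0.17; 0.0076). Each ± here is that of the fit without the block and does not belong to these adjusted p.

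The PFKFB enzymes make and break the sugar bisphosphate that activates phosphofructokinase, and Pfkfb3 (chromosome 2, 11471433 to 11554077) favours its synthesis. By the main test its level was lower under IL-4 and under both at 2 h, and higher under IFN-γ at 4 h. These calls were lost in 10, 6 and 8 of the 16 other settings run for each. At 2 h it stood at 16.8, 13.6 and 16.2 CPM under IL-4, at 89.6, 26.1 and 65.4 CPM under IFN-γ and at 18.8, 11.1 and 20.4 CPM under both, against 68.8, 28.7 and 43.5 CPM in untreated cells. Every library with IL-4 lay below every untreated one, alone or with IFN-γ, and the IFN-γ libraries overlapped them. The log2 changes were -1.46 ± 0.42 under IL-4 (adjusted p = 0.037), 0.27 ± 0.42 under IFN-γ (0.80) and -1.39 ± 0.42 under both (0.022).

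After 4 h Pfkfb3 stood at 32.6, 21.1 and 24.2 CPM under IL-4, at 139, 59.1 and 106 CPM under IFN-γ and at 55.5, 30.5 and 48.1 CPM under both, and each group overlapped the untreated one. It rose by 1.09 ± 0.42 under IFN-γ (adjusted p = 0.046), and its changes were -0.77 ± 0.42 under IL-4 (0.22; 0.0036 with the block) and -0.03 ± 0.42 under both (0.97). Replicate 2 was the lowest library in all 7 groups, and within replicate numbers the change after 4 h of IFN-γ was 1.00, 1.02 and 1.27. These 3 calls were stronger with the block (adjusted p = 2.2e-05, 1.5e-05 and 1.1e-04) but rested on few libraries without it. The fall under IL-4 at 2 h did not pass in the deposited scaling (0.085), with no filter on low values (0.058), against untreated replicate 1 alone (0.061), without untreated replicate 1 (0.16) or 3 (0.096) or without any 1 of the IL-4 libraries (0.083 to 0.12). The fall under both at 2 h was lost in the deposited scaling (0.081), without untreated replicate 1 (0.11) or 3 (0.056) and without treated replicate 2 (0.10). With replicate 1 or 3 dropped throughout, all of these calls ended. The adjusted p were then 0.27 and 0.44 for IL-4 at 2 h, 0.15 and 0.20 for both at 2 h, and 0.11 and 0.33 for IFN-γ at 4 h. The rise after 4 h of IFN-γ was lost without untreated replicate 2 (0.19) or 3 (0.10) or without treated replicate 1 (0.19) or 3 (0.11), with no filter (0.069) and against untreated replicate 1 alone (0.62). Pfkfb4 lay between 34.4 and 70.9 CPM and did not pass the main test in any comparison; with the block it was higher after 2 h of IFN-γ (0.38 ± 0.19, 0.010) and of both (0.44 ± 0.19, 0.0030).

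**Figure D3:**
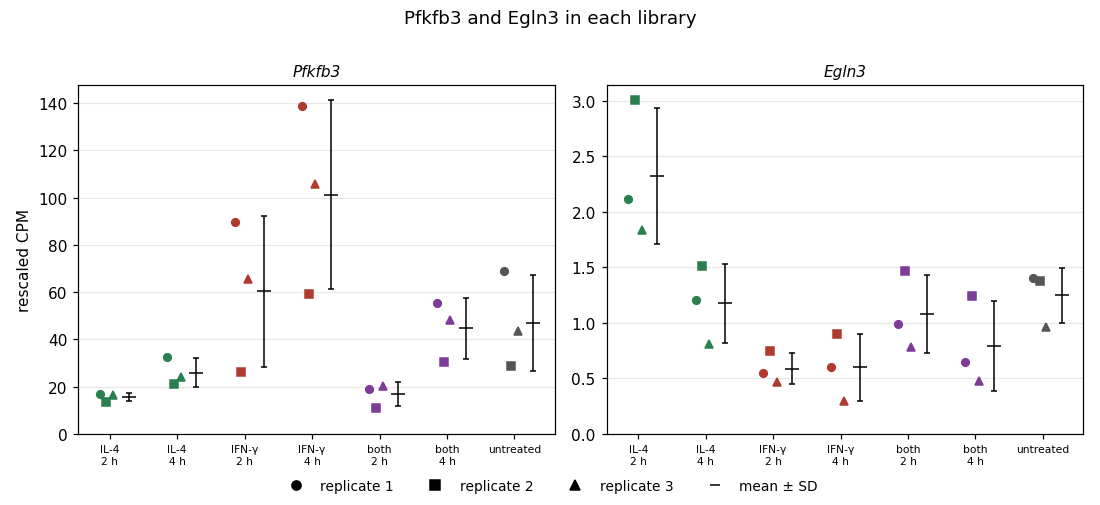
Rescaled CPM of Pfkfb3 (left) and Egln3 (right) in each library, with symbols for replicates 1, 2 and 3 and the mean ± SD of each group (n = 3). At 2 h Pfkfb3 lies at 11.1 to 20.4 CPM in all libraries given IL-4, alone or with IFN-γ, and Egln3 is highest, at 1.83 to 3.01 CPM, after 2 h of IL-4.

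Of the 6 genes that lead to pyruvate and lactate, 0 passed against untreated cells in any comparison by limma without the block or by edgeR. With the block, 4 were higher and 1 lower after 4 h of IFN-γ (32.5% and 30.8% of all genes). After 4 h these counts were 2 and 0 under both (33.4% each) and 0 and 3 under IL-4 (23.9% and 23.6%). At 2 h they were 1 and 1 under IFN-γ (20.2% and 17.9%), 1 and 1 under both (22.6% and 20.9%) and 0 and 1 under IL-4 (14% and 11.5%). Before adjustment, Pkm was higher after 4 h of IFN-γ and Eno1 lower after 2 h of both at p under 0.05. Pkm encodes pyruvate kinase (chromosome 9, 59656368 to 59679375) and had the highest level of all members per kilobase of the longest coding transcript in each group (1219 CPM after 4 h of IFN-γ and 685 CPM in untreated cells). It stood at 897, 1851 and 1109 CPM after 4 h of IL-4, at 2406, 3804 and 2686 CPM after 4 h of IFN-γ and at 1845, 3386 and 2036 CPM after 4 h of both, against 1169, 2312 and 1517 CPM in untreated cells. Replicate 2 was the highest library of every group, and only the IFN-γ libraries at 4 h lay wholly above the untreated ones. The changes were -0.38 ± 0.35 (adjusted p = 0.51), 0.86 ± 0.35 (0.064) and 0.54 ± 0.35 (0.23), and with the block the adjusted p were 0.0026, 4.4e-07 and 6.8e-05. Within replicate numbers 1, 2 and 3 the change after 4 h of IFN-γ was 1.04, 0.72 and 0.82.

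Gapdh, the glyceraldehyde phosphate dehydrogenase often used as a loading control, stood at 299, 539 and 313 CPM after 4 h of IL-4, at 413, 775 and 403 CPM after 4 h of IFN-γ and at 359.6, 705 and 379.6 CPM after 4 h of both, against 306, 640.2 and 356 CPM in untreated cells. Replicate 2 stood well above the other libraries of each group, so the groups overlapped (log2 changes -0.16, 0.29 and 0.15, each ± 0.43). With the block 4 of the 6 were higher after 4 h of IFN-γ: Pkm, Gapdh (adjusted p = 0.0029), Pgam1 (phosphoglycerate mutase, 0.31 ± 0.26; 0.0044) and Ldha (lactate dehydrogenase A, 0.34 ± 0.38; 0.0012). Under both at 4 h Pkm and Ldha (0.30 ± 0.38; 0.0026) were higher with it, and Pgk1, the phosphoglycerate kinase, passed neither way. Eno1, the enolase gene, was lower with the block after 4 h of IFN-γ (-0.65 ± 0.34; adjusted p = 0.14 without and 0.010 with it), but it had 287 to 1074 reads per library. The table also lists Eno1b, a near-identical copy that took 1 to 26 reads, so the value of Eno1 is uncertain. Other genes of this group have processed copies in the genome that could share their reads, and how the counting treated such reads is not given in the sources used here.

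**Figure D4:**
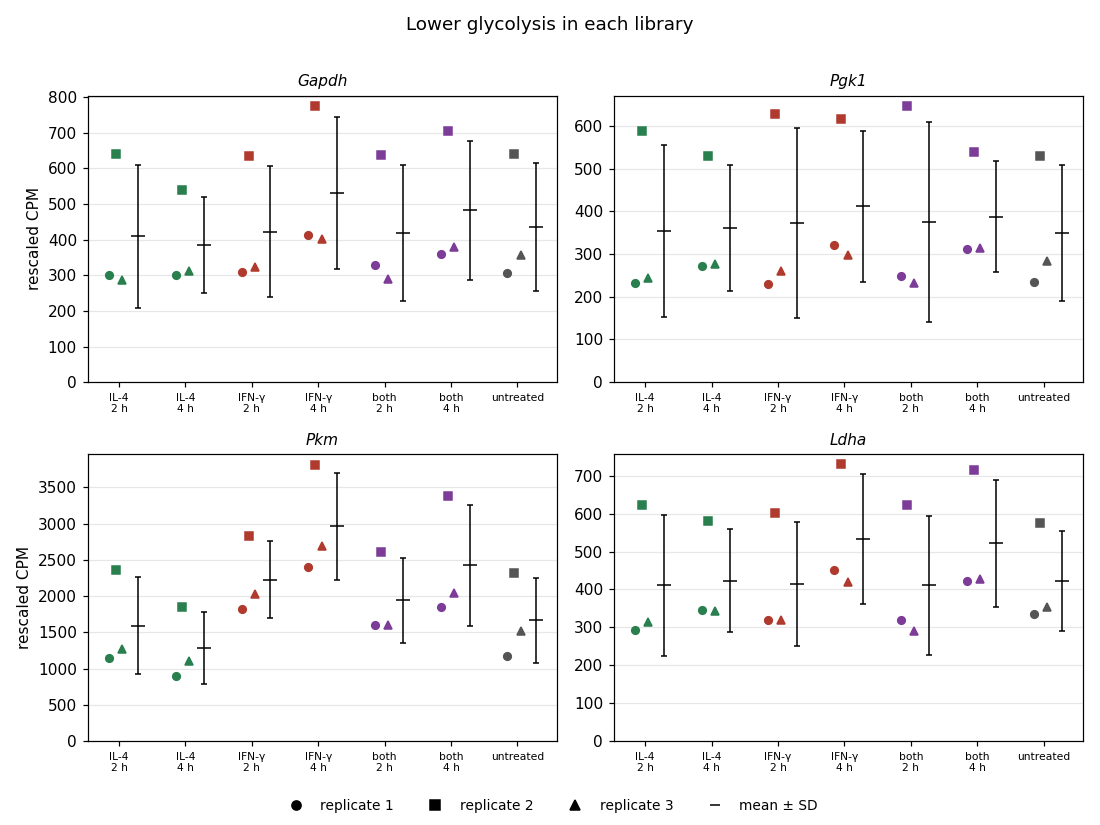
Rescaled CPM of Gapdh, Pgk1, Pkm and Ldha in each library, with symbols for replicates 1, 2 and 3 and the mean ± SD of each group (n = 3). Replicate 2 is the highest library of every group in all 4 panels, and for Pkm the 3 libraries after 4 h of IFN-γ lie at 2406 to 3804 CPM.

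Hif1a (chromosome 12, 73901375 to 73947530) rose under IFN-γ and under both at 2 h and at 4 h, and did not pass under IL-4. After 4 h it stood at 196, 143 and 138 CPM under IL-4, at 599, 324 and 408 CPM under IFN-γ and at 529, 367 and 399 CPM under both, against 163, 122 and 118 CPM in untreated cells. All libraries of IFN-γ and of both were above the untreated ones, and replicate 1 was the highest in each of these 4 groups. The changes were 0.23 ± 0.22 under IL-4 (adjusted p = 0.52), 1.68 ± 0.22 under IFN-γ (1.0e-05) and 1.67 ± 0.22 under both (9.2e-06). At 2 h they were 0.65 ± 0.22 under IFN-γ (0.047) and 0.88 ± 0.22 under both (0.0065), and against untreated replicate 1 alone neither passed (0.60 and 0.28). The call after 2 h of IFN-γ was lost without untreated replicate 2 (0.13) or 3 (0.16) and without any 1 of the IFN-γ libraries (0.064 to 0.13), and the call under both with replicate 3 dropped throughout (0.13).

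Egln3, a hydroxylase that marks HIF-α for degradation and is itself a HIF target (chromosome 12, 54178981 to 54203860), was the lowest member per kilobase in each group. At 2 h it had 2.12, 3.01 and 1.83 CPM under IL-4, 0.545, 0.745 and 0.470 CPM under IFN-γ and 0.993, 1.47 and 0.780 CPM under both, against 1.41, 1.37 and 0.963 CPM in untreated cells. The IL-4 libraries lay above all untreated ones and the IFN-γ libraries below them. The changes were 0.55 ± 0.19 under IL-4 (adjusted p = 0.097; 1.6e-04 with the block) and -0.50 ± 0.19 under IFN-γ (0.089; 2.3e-04 with the block). After 4 h of IFN-γ, at 0.603, 0.898 and 0.296 CPM, it fell by 0.50 ± 0.19 on the log2 scale (0.048). That call was lost by edgeR (0.059), in the deposited scaling (0.20), with no filter (0.059), against untreated replicate 1 alone (0.14), without untreated replicate 1 (0.13) or 2 (0.12) and without IFN-γ replicate 1 (0.095) or 3 (0.20). Egln1, the main hydroxylase of HIF-α, lay between 31.9 and 54.3 CPM, and Pdk1, which inhibits pyruvate dehydrogenase, between 27.0 and 70.1 CPM. Neither passed the main test in any comparison. With the block Egln1 was higher after 4 h of IL-4 (0.22 ± 0.14, adjusted p = 0.0067), IFN-γ (0.22 ± 0.14, 0.0046) and both (0.31 ± 0.14, 2.8e-04). Pdk1 was then lower after 4 h of IL-4 (-0.27 ± 0.30, 0.0069) and higher after 4 h of IFN-γ (0.28 ± 0.30, 0.0033).

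Of the 6 pentose phosphate genes, 0 passed after 4 h of IFN-γ by limma without the block or by edgeR. Before adjustment 0 also passed at p under 0.05 (limma without the block). With the block 1 was lower and 0 higher, beside 30.8% and 32.5% of all genes. The changes elsewhere were small. G6pdx, the first enzyme of the oxidative branch (chromosome X, 74409483 to 74429194), stood at 313, 285 and 305 CPM after 2 h of IL-4, at 285, 277 and 293 CPM after 2 h of IFN-γ and at 358, 303 and 326 CPM after 2 h of both, against 267, 274 and 277 CPM in untreated cells. All libraries of IL-4 and of both lay above the untreated ones, and the call was made under both (0.26 ± 0.08, adjusted p = 0.018). It ended without untreated replicate 1 (0.059), without replicate 1 of both (0.11) and against untreated replicate 1 alone (0.12). Pgd, the phosphogluconate dehydrogenase (chromosome 4, 149149991 to 149166771), stood at 332, 365 and 368 CPM after 4 h of IL-4, against 435, 471 and 440.4 CPM in untreated cells, with no overlap. It fell by 0.34 ± 0.10 on the log2 scale (0.017), but its change was 0.14 in the deposited scaling, so the direction rests on the rescaling. The call also ended when untreated replicate 2 (0.064) or IL-4 replicate 1 (0.077) was left out and against untreated replicate 1 alone (0.23).

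The lactonase Pgls (19.5 to 47.0 CPM), the isomerase Rpia (7.54 to 18.3 CPM), transaldolase Taldo1 (188 to 269 CPM) and transketolase Tkt (275 to 539.5 CPM) did not pass the main test in any comparison. With the block, Tkt was lower in each comparison with untreated cells but that of IL-4 at 2 h, with a log2 change of -0.29 under both at 4 h (adjusted p = 9.2e-04). Rpia was then higher after 4 h of IL-4 (0.41 ± 0.25; 0.0097).

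Set side by side at 4 h, 12 members were lower under IL-4 than under IFN-γ and 0 were higher, beside 21.6% and 20.3% of all genes. The median change of the members was -0.41, beside 0.01 for all genes. The 3 hexokinases differed most, by -2.36 ± 0.22 for Hk1 (adjusted p = 1.7e-07), -2.34 ± 0.36 for Hk2 (5.2e-05) and -2.13 ± 0.29 for Hk3 (1.7e-05). Pfkp (-2.08 ± 0.37), Pfkfb3 (-1.86 ± 0.42), Slc16a3 (-1.52 ± 0.25), Hif1a (-1.45 ± 0.22), Slc2a1 (-1.42 ± 0.15) and Slc2a6 (-1.38 ± 0.21) followed, then Pkm (-1.25 ± 0.35), Pfkl (-0.70 ± 0.17) and Pgd (-0.48 ± 0.10). In all 12 the IL-4 libraries lay wholly below the IFN-γ libraries, but the share of all genes separated in this way was not counted. This was the comparison in which Pkm passed the main test (adjusted p = 0.0088), with 897, 1851 and 1109 CPM under IL-4 and 2406, 3804 and 2686 CPM under IFN-γ. In the deposited scaling, where all genes shifted by 0.33, 9 were lower and 3 higher (11.1% and 30.4% of all genes), and Pkm (adjusted p = 0.069), Pfkl (0.25) and Pgd (0.65) did not pass. With replicate 3 dropped throughout, Pfkfb3 (0.084), Pfkl (0.050) and Pkm (0.15) did not pass, nor did Pkm with replicate 1 dropped (0.079). With the block 19 were lower and 3 higher (31.4% and 31.9% of all genes), the lower ones then including Tpi1, Gapdh, Pgam1, Ldha and Pdk1.

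At 2 h, 3 members were lower under IL-4 and 1 was higher (10.4% and 9.02% of all genes; 10 and 2 with the block, 19.7% and 19.4%). Hk1 stood at 68.7, 116 and 85.1 CPM under IL-4 and at 214, 238 and 231 CPM under IFN-γ, and Hk2 at 20.4, 32.6 and 20.3 CPM under IL-4 and at 106, 50.5 and 55.2 CPM under IFN-γ. Their changes were -1.36 ± 0.22 (adjusted p = 1.7e-04) and -1.45 ± 0.36 (0.0076), and neither pair of groups overlapped. Pfkfb3 was lower, with a change of -1.73 ± 0.42 (0.0060), a call that ended with replicate 1 (0.091) or 3 (0.21) dropped throughout. Egln3 was the one member called higher under IL-4 (1.05 ± 0.19, adjusted p = 6.6e-04). It passed the filter on low values only through libraries in which it was higher, so the call lends no separate support. The call held in every alternative run for it, with a highest adjusted p of 0.0496. These settings, but for that with no filter on low values, kept the same filter, so their outcome lends no separate support either. The call of Hk2 ended without IFN-γ replicate 1 (0.050) and, like that of Hk1 (0.050), with replicate 3 dropped throughout (0.16).

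**Figure D5:**
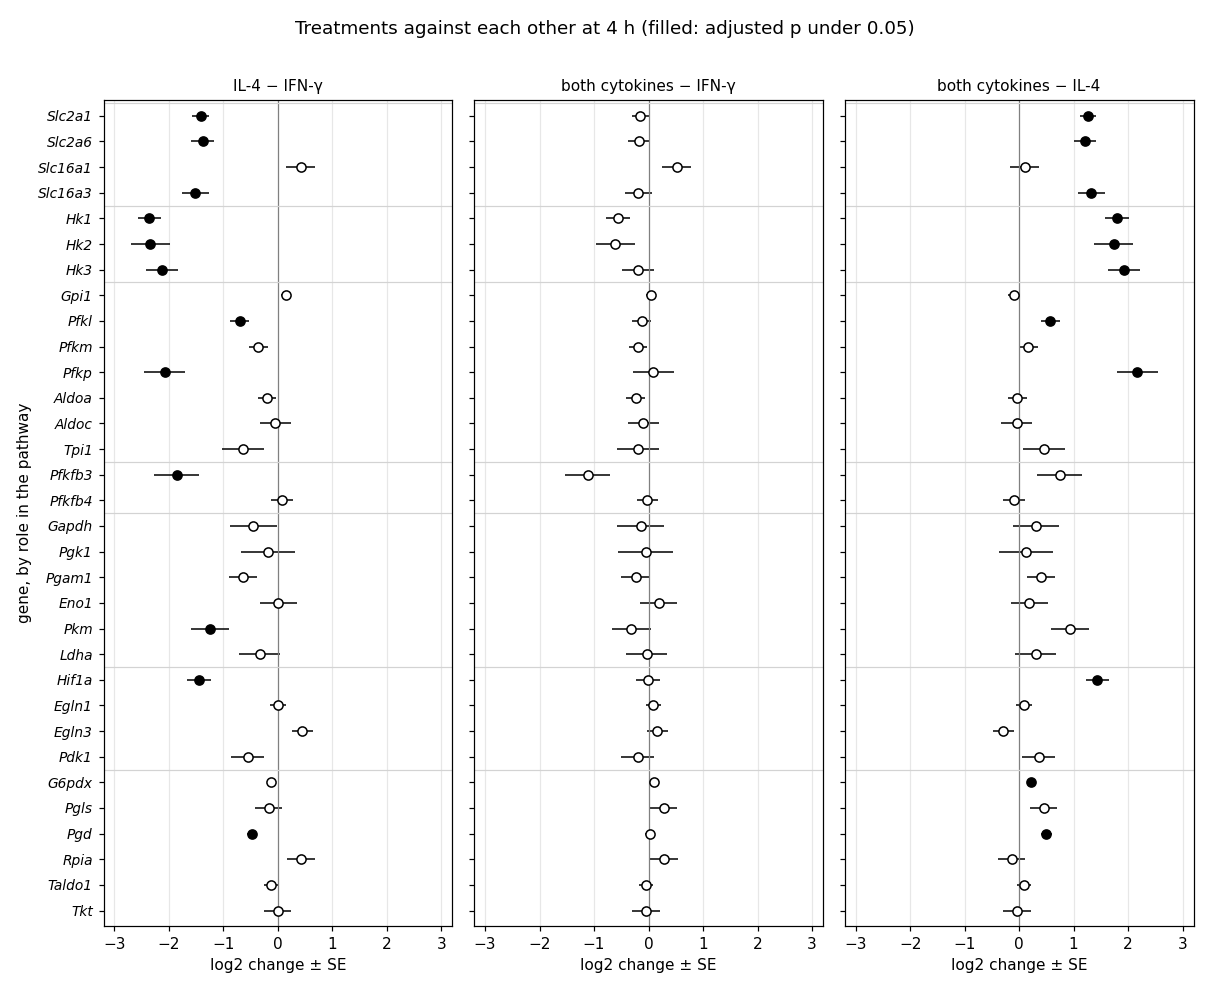
Log2 difference ± SE of each of the 32 genes at 4 h for IL-4 minus IFN-γ, both cytokines minus IFN-γ and both cytokines minus IL-4 (n = 3 libraries per group); filled points have an adjusted p under 0.05. In the left panel 12 genes are filled and negative, in the middle panel 0 are filled, and in the right panel 11 are filled and positive.

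With IFN-γ present, adding IL-4 changed few of the members, and few of all genes, by the main test. At 4 h 0 of the 32 passed in either direction by limma without the block (5.9% of all genes were higher and 5.98% lower) or by edgeR (6.31% and 5.84%). Before adjustment, 0 were higher and 2 lower at p under 0.05, and the share of all genes at that threshold was not counted. The largest difference was that of Pfkfb3, at 55.5, 30.5 and 48.1 CPM under both and 139, 59.1 and 106 CPM under IFN-γ (-1.12 ± 0.42, adjusted p = 0.10; 2.4e-04 with the block), with no overlap between the groups. Hk1 followed, at 185, 314 and 242 CPM under both and 285, 426 and 372 CPM under IFN-γ (-0.56 ± 0.22, 0.11; 3.4e-04 with the block). With the block 5 members were lower and 1 was higher (18.8% and 13.8% of all genes). At 2 h Pfkfb3 was lower under both (18.8, 11.1 and 20.4 CPM) than under IFN-γ (89.6, 26.1 and 65.4 CPM). By limma without the block it was the only member to pass (-1.66 ± 0.42, adjusted p = 0.037), beside 0.782% of all genes lower and 2.22% higher. That call ended in the deposited scaling (0.057), with no filter (0.065), without any 1 library of either group except IFN-γ replicate 2 (0.063 to 0.21), and with replicate 1 (0.38) or 3 (0.76) dropped throughout. With the block 2 members were lower and 3 higher at 2 h (4.5% and 5.87% of all genes), the higher ones Slc2a1 (0.51 ± 0.15, 0.022), Egln3 (0.38 ± 0.19, 0.0082) and G6pdx (0.20 ± 0.08, 0.030).

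With IL-4 present, adding IFN-γ raised 11 members at 4 h and lowered 0 (15.7% and 15.2% of all genes). They were the 3 carriers (Slc2a1 1.27 ± 0.15, Slc2a6 1.21 ± 0.21, Slc16a3 1.32 ± 0.25), the 3 hexokinases (Hk1 1.80 ± 0.22, Hk2 1.73 ± 0.36, Hk3 1.93 ± 0.29), Pfkp (2.17 ± 0.37), Pfkl (0.57 ± 0.17), Hif1a (1.44 ± 0.22), Pgd (0.50 ± 0.10) and G6pdx (0.22 ± 0.08). In each the libraries of both lay wholly above those of IL-4, and here too the share of all genes was not counted. The change of G6pdx turned to -0.04 in the deposited scaling, which ended its call and those of Pfkl (adjusted p = 0.33) and Pgd (0.37). The call of G6pdx also went without IL-4 replicate 2 (0.17) or 3 (0.058) or any 1 of the libraries of both (0.056 to 0.096), and that of Pfkl without IL-4 replicate 2 (0.064) or 3 (0.065) or replicate 1 of both (0.062). With replicate 3 dropped throughout, Hk2 (0.055) did not pass either. With the block 19 were higher and 1 lower (25.9% and 30.1% of all genes), Pkm (0.93 ± 0.35, adjusted p = 0.056 without and 2.5e-07 with it) among the higher. At 2 h 1 member was higher, Hk1 (0.89 ± 0.22, adjusted p = 0.0084), and 1 lower, Egln3 (-0.67 ± 0.19, 0.024), beside 8.68% and 6.13% of all genes, and with the block 8 and 2 (16.3% and 17%). The call of Hk1 was lost in the deposited scaling (0.066) and without IL-4 replicate 1 (0.056). That of Egln3 was lost by edgeR (0.092), at a pseudocount of 0.25 (0.052) and without IL-4 replicate 1 (0.052) or 2 (0.11) or replicate 1 (0.078) or 3 (0.11) of both.

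Under IFN-γ 9 members were higher at 4 h than at 2 h and 0 lower (9.89% and 7.77% of all genes), and under both cytokines likewise 9 and 0 (9.41% and 8.89%). Under IL-4 0 of the 32 passed by limma without the block (1.27% and 1.55% of all genes) or by edgeR (1.12% and 1.44%). Before adjustment, 3 were lower and 0 higher at p under 0.05, but the share of all genes at that threshold was not counted. Slc16a3, which overlapped untreated cells at 2 h, had 95.0, 93.9 and 67.6 CPM at 4 h and 25.7, 36.8 and 25.3 CPM at 2 h of IFN-γ, a change of 1.52 ± 0.25 (adjusted p = 4.9e-04). Slc2a6 (1.68 ± 0.21), Pfkp (1.60 ± 0.37), Slc2a1 (1.41 ± 0.15), Hk3 (1.38 ± 0.29), Hk2 (1.27 ± 0.36), Hif1a (1.03 ± 0.22), Pfkl (0.74 ± 0.17) and Hk1 (0.64 ± 0.22) were also higher at 4 h of IFN-γ. The call of Hk1 ended in the deposited scaling (0.31), by edgeR (0.061) and without any 1 library of the 2 groups but IFN-γ replicate 1 at 4 h (0.082 to 0.15). That of Hk2 ended in the deposited scaling (0.066), without replicate 2 (0.086) or 3 (0.087) at 2 h and without replicate 1 at 4 h (0.13). That of Pfkl ended in the deposited scaling (0.16).

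Under both cytokines the members higher at 4 h were the same without Hk1 and with Pfkfb3, which stood at 55.5, 30.5 and 48.1 CPM at 4 h and at 18.8, 11.1 and 20.4 CPM at 2 h (1.37 ± 0.42, adjusted p = 0.030). That call was lost in the deposited scaling (0.077), without replicate 1 (0.052) or 2 (0.11) at 2 h and without replicate 1 (0.11) or 3 (0.086) at 4 h. The others ranged between 0.75 ± 0.15 for Slc2a1 and 1.46 ± 0.25 for Slc16a3. Hif1a, Hk2 and Pfkl did not pass in the deposited scaling (0.11, 0.063 and 0.077), and the same calls but that of Pfkl ended without 1 library. For Hif1a this was replicate 2 (0.051) or 3 (0.072) at 2 h or replicate 1 at 4 h (0.085), and for Hk2 replicate 2 (0.074) or 3 (0.094) at 2 h or replicate 1 at 4 h (0.13). With replicate 3 dropped throughout, those of Pfkp (0.16 under IFN-γ, 0.17 under both) and Hk3 (0.18 and 0.15) ended too, and with replicate 1 dropped those of Pfkp (0.14 and 0.16), Slc16a3 under IFN-γ (0.071) and Hk3 under both (0.051). Slc2a1 (0.10) and Slc2a6 (0.052) under both, Hif1a (0.13) under IFN-γ and Pfkl (0.12 under IFN-γ, 0.11 under both) also did not pass with replicate 3 dropped. With the block the members higher at 4 h and lower numbered 16 and 2 under IFN-γ (23.2% and 22.1% of all genes), 17 and 3 under both (23% and 23.8%) and 2 and 5 under IL-4 (9.1% and 10.7%). In the deposited scaling 6 members under IFN-γ and 5 under both were higher at 4 h (3.15% and 3.31% of all genes) and 0 lower (4.89% and 5.15%). Whether the time course differed between the treatments was not tested.

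Levels within a group followed the replicate number. In replicate 2, 12 of the 32 members were higher than in replicates 1 and 3 in all 7 groups, beside 15.8% of all genes tested (1794). They were Hk1, Aldoa, Tpi1, Gapdh, Pgk1, Pgam1, Pkm, Ldha, Pdk1, Rpia, Taldo1 and Tkt, among them 5 of the 6 lower glycolysis genes. Slc2a6, Pfkfb3 and Pfkfb4 were lowest in replicate 2 in all 7 groups, and the share of all genes lowest there was not counted. For Pgk1 the levels in replicates 1, 2 and 3 were 321, 615 and 298 CPM after 4 h of IFN-γ and 234, 531 and 284 CPM in untreated cells. The labels do not say what the replicate numbers stand for.

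Further lists, without the members, held 22, 14 and 21 tested genes of glycolysis with the pentose phosphate pathway, of pyruvate oxidation with gluconeogenesis, and of the HIF-1 pathway with its targets. After 4 h of IL-4, 4, 2 and 3 of them rose and 3, 1 and 4 fell, beside 12% and 10.1% of all genes. After 4 h of IFN-γ, 3, 1 and 5 rose and 4, 2 and 5 fell (21.3% and 17.8% of all genes), and after 4 h of both, 4, 1 and 4 rose and 5, 3 and 6 fell (22.8% and 19.8%). Genes of these lists are named below for calls with a log2 change of 1 or more in size. A comparison that is not named for a gene may therefore hold a smaller change. Slc2a3, which encodes the carrier GLUT3, went the other way to Slc2a1: it averaged 5.39 ± 1.504 CPM after 4 h of IFN-γ and 3.69 ± 1.22 CPM after 4 h of both, against 21.8 ± 2.17 CPM in untreated cells (SD, n = 3; log2 changes -1.86 ± 0.19 and -2.31 ± 0.19, adjusted p = 6.3e-07 and 3.7e-08). Gpd2, the mitochondrial glycerol phosphate dehydrogenase, rose after 4 h of IFN-γ (96.8 ± 54.8 against 25.2 ± 3.55 CPM; 1.76 ± 0.28, 1.0e-04), as did Pgam2 (1.18 ± 0.19) under IFN-γ and Pgam2 (1.16 ± 0.19), Pgm2 (1.10 ± 0.14) and Pfkfb1 (1.03 ± 0.23) under both. Gpd1 (1.31 ± 0.10) and Shpk (1.00 ± 0.18) were higher under IL-4 than under IFN-γ at 4 h. At 2 h of both, Eno2 fell (-1.20 ± 0.15).

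At the pyruvate gate, Pdk3, a pyruvate dehydrogenase kinase, rose after 4 h of IFN-γ (36.5 ± 5.45 against 10.1 ± 0.955 CPM; 1.74 ± 0.21, adjusted p = 4.6e-06) and of both (1.72 ± 0.21). It also rose after 2 h of IFN-γ (1.08 ± 0.21) and of both (1.03 ± 0.21), calls that ended against untreated replicate 1 alone (adjusted p = 0.065 and 0.066), that under both also with replicate 1 dropped throughout (0.061). Pdp1, the opposing phosphatase, fell after 4 h of IL-4 (-1.45 ± 0.19) and of both (-1.99 ± 0.19) and after 2 h of IFN-γ (-1.84 ± 0.19) and of both (-2.13 ± 0.19). In the other 2 groups its mean was also below the 55.9 ± 10.5 CPM of untreated cells. It was 31.7 ± 5.43 CPM after 2 h of IL-4 and 31.2 ± 4.68 CPM after 4 h of IFN-γ (SD, n = 3). Pdk2, another such kinase (-1.06 ± 0.40 after IFN-γ, -1.23 ± 0.40 after both) and Pck2, the mitochondrial PEP carboxykinase (-1.94 ± 0.62 after both) fell at 4 h, but these calls rested on few libraries: that of Pdk2 after IFN-γ ended without any 1 of untreated replicates 1 (0.14) and 3 (0.13) and IFN-γ replicates 1 (0.13) and 2 (0.12). That after both ended without untreated replicate 1 (0.073) or 3 (0.071) or treated replicate 1 (0.069), and that of Pck2 without untreated replicate 2 (0.061) or 3 (0.056) or treated replicate 1 (0.11). Of the HIF-1 targets, P4ha1, a collagen prolyl hydroxylase, rose after 4 h of IFN-γ (1.24 ± 0.10) and of both (1.87 ± 0.10), and after 2 h of IL-4 (1.03 ± 0.10), IFN-γ (1.01 ± 0.10) and both (1.85 ± 0.10). P4ha1 averaged 98.2 ± 8.93 CPM after 4 h of IL-4, against 64.5 ± 4.53 CPM in untreated cells (SD, n = 3). Ndrg1 rose after 2 h of IFN-γ (1.40 ± 0.21) and of both (1.19 ± 0.21). At 4 h Ndrg1 averaged 223 ± 23.0 CPM under IFN-γ, 177 ± 16.6 CPM under both and 77.1 ± 5.04 CPM under IL-4, against 130 ± 11.9 CPM in untreated cells (SD, n = 3). Mxi1 and the lipid droplet gene Plin2 fell after 4 h of IFN-γ (-1.23 ± 0.21 and -1.45 ± 0.32) and of both (-1.35 ± 0.21 and -1.64 ± 0.32). Plin2 also fell after 4 h of IL-4 (-1.004 ± 0.32, adjusted p = 0.030) and 2 h of both (-1.04 ± 0.32, 0.023), calls that ended in the deposited scaling (0.25 and 0.16) and without untreated replicate 1 (0.091 and 0.079) or 2 (0.090 and 0.075) or treated replicate 1 (0.058 and 0.054) or 3 (0.14 and 0.12). Vegfa, the endothelial growth factor, stood at 16.2 ± 5.84 CPM after 2 h of IL-4, 25.04 ± 11.97 CPM after 2 h of IFN-γ and 10.2 ± 4.09 CPM after 2 h of both, against 55.9 ± 17.3 CPM in untreated cells, and fell in all 3 (adjusted p = 0.0069, 0.038 and 1.8e-04). Its call after IFN-γ ended by edgeR (0.052), in the deposited scaling (0.13) and without untreated replicate 1 (0.15) or 3 (0.092) or IFN-γ replicate 2 (0.21) or 3 (0.064). At 4 h it stood at 14.4 ± 3.35 CPM under IL-4, 74.3 ± 26.3 CPM under IFN-γ and 26.1 ± 2.64 CPM under both. It fell under IL-4 (-1.86 ± 0.38, adjusted p = 0.0019) and under both (-1.03 ± 0.38, 0.040), the second a call that ended without any 1 of the treated libraries (0.067 to 0.10) or untreated replicate 1 (0.15) or 3 (0.084), and in the deposited scaling (0.12). Under IFN-γ it was higher at 4 h than at 2 h (1.59 ± 0.38, adjusted p = 0.0083), and that call ended without IFN-γ replicate 1 at 4 h (0.052) and with replicate 3 dropped throughout (0.19). Epas1, which encodes HIF-2α, was higher under IL-4 than under IFN-γ at 4 h (8.21 ± 1.22 against 3.23 ± 0.0887 CPM; 1.11 ± 0.15).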

How the data were processed

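The authors deposited gene-level CPM (read counts divided by the library total) for 21 libraries; per the submitters' processing notes TopHat2 2.1.0, HTSeq and edgeR were used with mm10, and counting settings and annotation are not given in the sources used here. Every deposited CPM was a whole multiple of 1 read (within 0.01 read; 100% of values), so reads were recovered, 28920801 to 80028327 per library, where 1 read is 0.0125 to 0.0346 CPM. CPM was rescaled by median-ratio factors and tested as log2(CPM + 1) with limma 3.58.1 (R 4.3.3, trend, 14 residual degrees of freedom) on the 11380 genes reaching 1 CPM in 3 or more libraries, with Benjamini-Hochberg adjustment over these genes in each of 15 comparisons; 5857 genes had no reads. A call is an adjusted p under 0.05. Other settings were the deposited scaling, a replicate block, a pseudocount of 0.25, no filter (18564 genes), edgeR 4.0.16 (quasi-likelihood, TMM) on the recovered reads, each replicate left out, and untreated replicate 1 as the sole control, assumed to vary like the other groups. The code was tested on simulated data. With group means removed, libraries with 1 replicate number in 2 groups correlated at 0.539 to 0.951 (63 pairs), those with different numbers at -0.859 to 0.369 (126 pairs), so the numbers pair the samples. The labels do not say whether replicates are separate animals or cultures, so p-values reflect only how these samples vary, possibly for technical reasons. The members and gene lists were chosen with earlier results of these data known. All members are described, with values per library for those called with a log2 change of 1 or more in size or most changed in their role, and other pathway genes are named by the same size; repeats of such calls in further comparisons are left out. Protein sequences were not used here. Promoters came from RefSeq (GRCm38.p6, all 32 genes matched) and gene positions from the GRCm38 annotation.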

Additional observations from a re-analysis of the deposited data

Results flagged for a closer look

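In 2 treatments, the change of single members between 4 h and 2 h passed a direct test within the treatment. The test was limma without the block at an adjusted p under 0.05, and 0 members passed it under IL-4. Under IFN-γ the log2 differences, 4 h minus 2 h, were 1.41 for Slc2a1, 1.68 for Slc2a6, 1.52 for Slc16a3, 0.64 for Hk1, 1.27 for Hk2, 1.38 for Hk3, 0.74 for Pfkl, 1.60 for Pfkp and 1.03 for Hif1a. Each was higher in 3 of 3 replicate numbers. Under both cytokines they were 0.75 for Slc2a1, 1.25 for Slc2a6, 1.46 for Slc16a3, 1.21 for Hk2, 1.30 for Hk3, 0.81 for Pfkl, 1.46 for Pfkp, 1.37 for Pfkfb3 and 0.79 for Hif1a. These time points are the ones whose effects against the shared untreated cells differ, and whether the difference itself varies between treatments was not tested. Groups of 3 libraries were not searched for outlying samples.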

How the results depend on the processing

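With the replicate number as a block, all 82 calls of members held and more were made: 9 members were called after 2 h of IL-4, 12 after 2 h of IFN-γ, 15 after 2 h of both, 15, 22 and 17 after 4 h of IL-4, IFN-γ and both, 12 and 22 between IL-4 and IFN-γ at 2 h and 4 h, 5 and 6 between both and IFN-γ, 10 and 20 between both and IL-4, and 7, 18 and 20 between 4 h and 2 h under IL-4, IFN-γ and both. The block ended no call. In the deposited scaling 63 calls held, and 5, 6 and 6 members were called after IL-4 at 2 h, IFN-γ at 2 h and IL-4 at 4 h, 0 between both and IFN-γ at 2 h, 1 between both and IL-4 at 2 h, and 5 between 4 h and 2 h of both. Between both and IFN-γ at 2 h, 1.42% of all genes were higher and 0.237% lower in that scaling, and between both and IL-4 at 2 h 4.95% and 3.32%. The changes of Pgd after 4 h of IL-4 (0.14) and of G6pdx between both and IL-4 at 4 h (-0.043) had the opposite sign there, with and without the block; the cause was not tested. The block in the deposited scaling called 10, 11, 11 and 12 after IL-4, IFN-γ and both at 2 h and IL-4 at 4 h, 1 between both and IFN-γ at 4 h, 5 between both and IL-4 at 2 h, and 2 between 4 h and 2 h of IL-4. In these comparisons with untreated cells 36.2%, 22.6%, 28% and 48.1% of all genes were higher and 1.88%, 3.58%, 5.21% and 5.07% lower. In the others, in the same order, 7.4%, 8.12% and 1.97% were higher and 5.76%, 8.59% and 2.09% lower. With no filter the counts were 1 after 2 h of IL-4 and 0 between both and IFN-γ at 2 h. A pseudocount of 0.25 and edgeR each gave 1 between both and IL-4 at 2 h, and they held 81 and 79 of the calls. By edgeR 9.31% of all genes were higher and 5.71% lower in that comparison. Against untreated replicate 1 alone, 22 of 34 calls held, with 1 member called after IL-4 at 2 h and 1 at 4 h.

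Leaving out replicates moved the counts against untreated cells over 0 to 5 after 2 h of IL-4, 0 to 8 after 2 h of IFN-γ, 1 to 10 after 2 h of both, 0 to 6, 9 to 17 and 8 to 14 after 4 h of IL-4, IFN-γ and both. Between treatments the ranges were 1 to 8 and 9 to 19 for IL-4 and IFN-γ at 2 h and 4 h, 0 to 1 and 0 to 3 for both and IFN-γ, and 0 to 6 and 8 to 14 for both and IL-4. Between 4 h and 2 h they were 0 under IL-4, 3 to 13 under IFN-γ and 1 to 12 under both. With 2 libraries in every group fewer spreads are pooled, and 64, 76 and 40 calls held without replicate 1, 2 and 3. In all, 35 of the 82 calls held in every setting run for them. Depth limits Egln3 most, at 0.296 to 3.01 CPM.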
